A study of Homo sapiens with 2 samples.

Results

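Mitotic spindle, kinetochore and cytokinesis genes were examined in EOL1 cells, a human eosinophilic leukaemia line in which the FIP1L1-PDGFRA fusion kinase is expressed. The 38 genes are a list of symbols of known mitotic genes, and all 38, of 19775 annotated genes, had a probe set naming them alone. The tested culture received 100 nM Glivec (imatinib, which blocks PDGF receptors and a few other tyrosine kinases, ABL and KIT among them) for 4 h, and the control culture was left untreated. Both were grown in RPMI with serum and antibiotics, and each group is represented by a single Affymetrix array. Without replicates the differences below could not be tested, p-values are not reported, and precision is limited by the 2 arrays. All cells belong to a single line, and in bulk RNA a change in the share of cells in mitosis and a change in RNA per cell cannot be told apart.

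Mitosis is driven by CDK1 with cyclin B and by kinases of the Aurora, Polo and NEK families. These kinases build the bipolar spindle and recruit the kinetochore, the protein plate through which chromosomes bind microtubules. The spindle assembly checkpoint holds back the anaphase-promoting complex until every kinetochore is attached. Separase then cuts cohesin, and a contractile ring pinches the daughter cells apart. In cycling cells most of these genes are transcribed late in the cycle, from promoters bound by NF-Y, by the MuvB complex with B-MYB and by FOXM1. In resting cells the DREAM complex represses them through the same promoter element that MuvB binds.

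Values are MAS5 signals on a linear scale, and ratios are Glivec over untreated on the log2 scale. A signal floor of 13.7, the median of all non-control signals, bounded ratios of dim probe sets, and genes above it on either array were taken as measured. It was exceeded by 51.4% of non-control probe sets on the Glivec array and by 48.6% on the untreated array. Of the markers fixed for this line, the eosinophil granule gene PRG2 had signals of 6302 with Glivec and 4744 without, and MPO, CSF2RA, CSF2RB and PDGFRA were also above the floor on both arrays. The interleukin-5 receptor gene IL5RA was below it on both, and CLC (13.2 with Glivec, 19.4 without) and EPX (27.2 and 12.6) were above it on 1 array only. Of 11 T, B, erythroid and epithelial markers, 1 was above the floor on both arrays, CD79A with signals of 94.9 with Glivec and 60.03 without. The 18 hybridisation spike-in probe sets, added in equal amount by the standard protocol, had a median log2 ratio of 0.74, or 1.67-fold more signal on the Glivec array. When the arrays were scaled to these spike-ins, the median log2 ratio of the measured genes (12705 as deposited) was -0.59, against 0.10 as deposited. Signs below are relative to 0 on the deposited scale unless stated otherwise. A ratio between 0 and 0.10 is thus above 0 but not above the all-gene median.

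Most of the mitotic genes had a somewhat higher signal with Glivec, and none was 1.5-fold lower. All 38 were above the floor on both arrays, with signals of 227 to 2867 with Glivec and 178 to 2930.1 without, so no ratio here is a bound. Their median log2 ratio was 0.28, or 1.21-fold, with a spread of 0.28 (SD over genes) and a range of -0.07 to 1.03. The median over all measured genes was 0.10. Ratios were above 0 for 34 of 38 genes, where 59.0% of all measured genes were, but scaling to the spike-ins left 2 of 38 above 0 (NEK2 and HMMR) and a median of -0.46.

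A difference of 2-fold was reached by 1 of 38 genes in the higher direction, HMMR, and by 0 in the lower. The shares of all measured genes past 2-fold were 3.13% higher and 2.63% lower, so the count of mitotic genes past it is close to the background. At 1.5-fold the count was 9 higher (23.7%) and 0 lower, where all measured genes gave 13.5% higher and 8.33% lower. With quantile normalization the 1.5-fold counts were 10 higher and 0 lower, beside 11.1% of all measured genes higher. They were 5 and 0 with median centring (9.83% of all higher) and 9 and 0 with a loess trend removed (8.60%). Spike-in scaling gave 0 and 10, beside 1.22% of all higher. The all-gene median under spike-in scaling was -0.59, itself just past 1.5-fold lower, so the 10 lower do not exceed the background. KIF18A, at 1.495-fold, lay just short of 1.5-fold.

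The members' signals are well above the floor, in a range where the bulk of genes was shifted less. Among the 4543 measured genes whose mean signal fell within the members' range, the median log2 ratio was 0.01, 51.0% were above 0 and 6.45% were at least 1.5-fold higher. Relative to the all-gene median of the same setting, 30 of 38 mitotic genes were above it as deposited, 34 with quantile normalization, 34 after loess and 28 with spike-in scaling. Their place relative to other genes thus varied less with scaling than their sign did. For spike-in scaling, which divides 1 array by 1 constant, this follows largely from its construction.

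**Figure D1:**
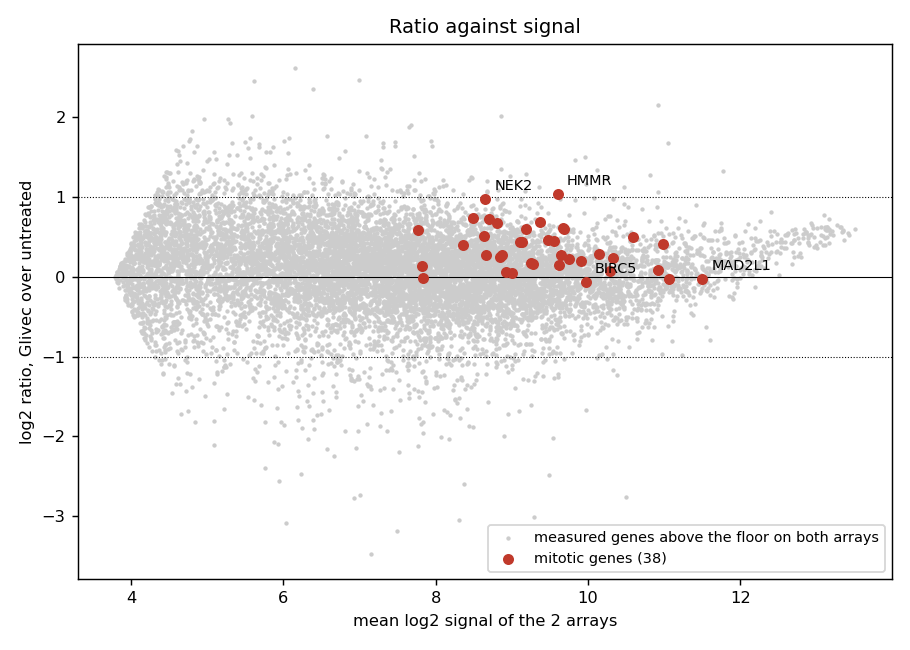
Log2 ratio (Glivec over untreated) against the mean log2 signal of both arrays for measured genes above the floor on both (grey points) and the 38 mitotic genes (red points), with dotted lines at 2-fold. The red points lie between -0.07 and 1.03, with HMMR and NEK2 at the top and MAD2L1 and BIRC5 near 0, and 32 of the 38 change sign under spike-in scaling.

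The promoters of these genes were searched for binding elements of MuvB and NF-Y. RefSeq start sites (GRCh38.p14) gave 34 windows of 300 bases, from 250 before to 50 after the start, for 31 of the 38 genes. The cell cycle genes homology region, or CHR, through which MuvB binds, was searched as TTTGAA or TTCGAA on both strands, and the NF-Y box as CCAAT on both strands. A CHR match lay in 26 of 34 windows (76.5%), where 16.4% of all 35116 windows and 12.5% of the 14722 windows of measured genes held one. A CCAAT match also lay in 26 of 34 windows, where 34.6% of all windows held one. Both occurred together in 20 of 34 windows (58.8%), where 6.38% of all windows held both. The first base of the 36 CHR matches lay at a median of -27 from the start, and that of the 54 CCAAT matches at -71. ECT2, PTTG1 and AURKB have overlapping windows, so a match can count more than once.

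The 250 bases before the start are shown for the 4 genes with the highest ratios and for the 2 with the lowest ratios that have 1 window each. Capitals mark CHR and CCAAT matches in either orientation. HMMR (chr5:163460382-163460631, plus strand) holds tandem CHR matches at -28 and -22 and 5 CCAAT matches, a pair of which overlap. NEK2 (chr1:211675622-211675871, minus strand) and KIF20A (chr5:138178862-138179111, plus strand) hold 2 CCAAT matches each and no CHR match. ESPL1 (chr12:53268049-53268298, plus strand) holds a CHR match at -31 and a CCAAT match at -48. CENPA (chr2:26785806-26786055, plus strand) holds a CHR match at -18 and 2 CCAAT matches. MAD2L1 (chr4:120066849-120067098, minus strand) holds 1 CCAAT match, and its CHR match starts at base 25 after the start, outside the stretch shown.
HMMR: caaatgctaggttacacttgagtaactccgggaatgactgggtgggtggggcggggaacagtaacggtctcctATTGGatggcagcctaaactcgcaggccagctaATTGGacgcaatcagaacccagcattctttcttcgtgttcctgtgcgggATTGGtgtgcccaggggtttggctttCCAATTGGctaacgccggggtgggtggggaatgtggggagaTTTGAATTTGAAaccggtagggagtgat
NEK2: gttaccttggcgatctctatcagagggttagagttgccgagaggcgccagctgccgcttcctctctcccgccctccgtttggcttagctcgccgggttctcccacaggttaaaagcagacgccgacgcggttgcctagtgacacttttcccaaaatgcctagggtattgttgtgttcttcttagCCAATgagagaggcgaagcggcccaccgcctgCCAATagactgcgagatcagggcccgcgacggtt
KIF20A: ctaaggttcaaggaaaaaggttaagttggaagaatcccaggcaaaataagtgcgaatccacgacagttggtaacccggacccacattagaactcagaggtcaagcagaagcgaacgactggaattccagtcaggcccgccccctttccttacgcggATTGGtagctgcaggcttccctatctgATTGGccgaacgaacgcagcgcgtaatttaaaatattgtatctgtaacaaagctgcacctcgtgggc
ESPL1: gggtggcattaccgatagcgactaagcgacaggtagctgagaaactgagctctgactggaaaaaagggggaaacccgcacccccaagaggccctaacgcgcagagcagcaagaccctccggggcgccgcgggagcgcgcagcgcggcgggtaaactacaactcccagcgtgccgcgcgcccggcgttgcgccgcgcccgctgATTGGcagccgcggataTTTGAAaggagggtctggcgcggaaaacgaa
CENPA: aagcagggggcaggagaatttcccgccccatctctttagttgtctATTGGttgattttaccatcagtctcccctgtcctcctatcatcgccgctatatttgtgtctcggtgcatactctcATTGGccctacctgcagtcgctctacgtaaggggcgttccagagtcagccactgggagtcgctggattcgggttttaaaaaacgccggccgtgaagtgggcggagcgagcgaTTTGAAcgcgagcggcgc
MAD2L1: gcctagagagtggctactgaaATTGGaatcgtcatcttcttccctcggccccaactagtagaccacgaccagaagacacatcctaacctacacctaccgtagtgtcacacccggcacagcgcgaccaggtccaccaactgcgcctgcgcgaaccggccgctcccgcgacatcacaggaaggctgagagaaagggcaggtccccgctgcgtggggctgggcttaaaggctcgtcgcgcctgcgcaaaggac

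Ratios of members with and without a match overlapped. The 25 genes with a CHR match had a median log2 ratio of 0.40 (-0.03 to 1.03), and the 6 with windows but no match had 0.47 (0.08 to 0.97). Genes with a CCAAT match (24) had a median of 0.42 (-0.03 to 1.03) and those without (7) had 0.27 (0.06 to 0.68). Among the other measured genes with a window, the 1624 with a CHR match had a median of 0.10 and the 8581 without had 0.09. These are descriptions of sequence and ratio over genes, with no test.

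**Figure D2:**
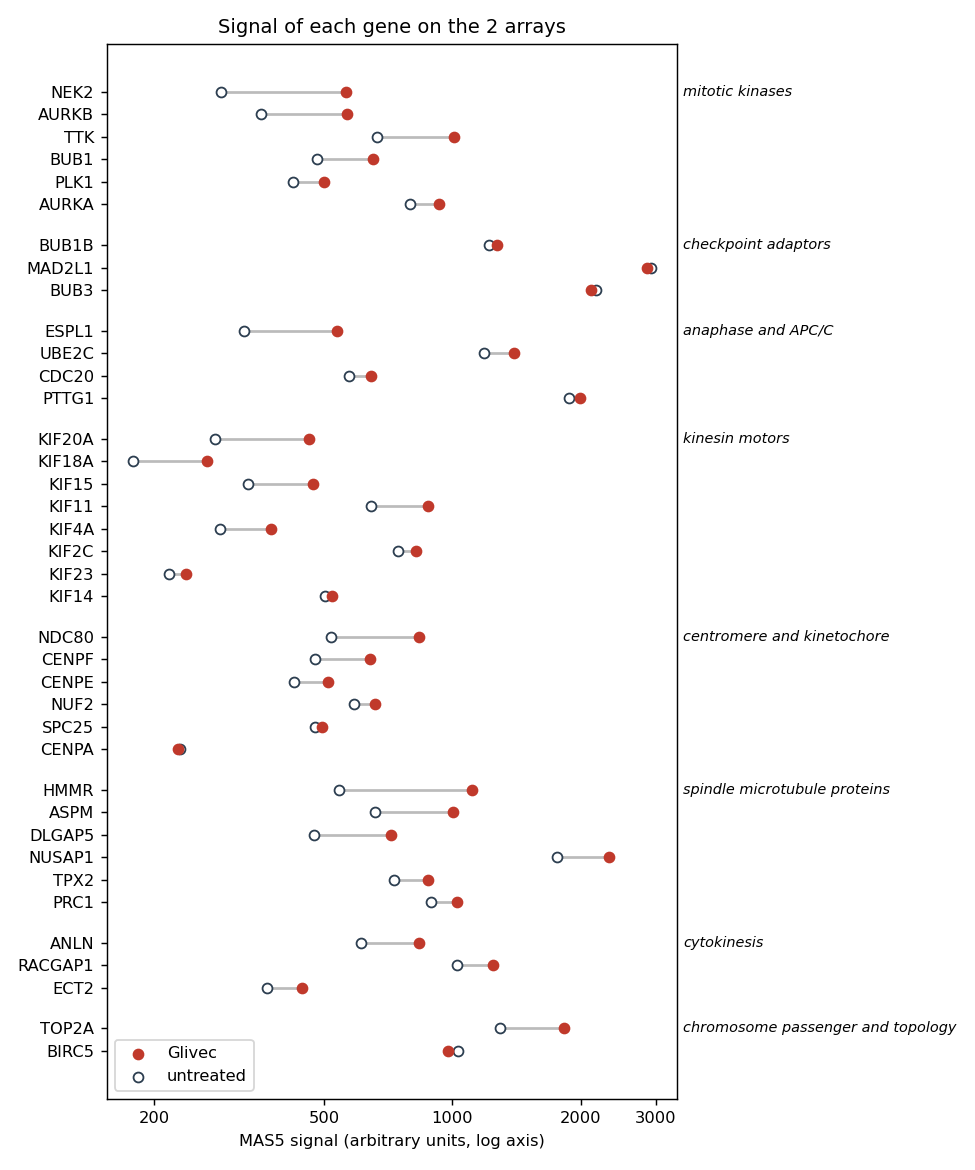
MAS5 signal (log axis) of the probe set standing for each of the 38 genes on the Glivec array (filled red) and the untreated array (open), grouped by role. The widest gaps are those of HMMR and NEK2, and the points of CENPA, MAD2L1, BUB3, KIF14, SPC25 and BUB1B nearly coincide. The gaps are as deposited, and 32 of the 38 turn to the other side under spike-in scaling.

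Mitotic kinase genes were among the groups with the highest ratios. All 6 had a ratio above 0 as deposited, with a median of 0.52, and only NEK2 stayed above 0 with spike-in scaling. NEK2, a kinase that separates the centrosomes before the spindle forms, had a signal of 564 with Glivec and 287 without, or 1.97-fold. Its other probe set gave 274.5 and 164, a log2 ratio of 0.75 against 0.97 for the brighter one, so both lay on the same side.

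AURKB, the catalytic subunit of the chromosomal passenger complex, had 566 with Glivec and 356 without (log2 ratio 0.67). A second AURKB probe set lay near the floor, at 14.1 and 17.9, and its log2 ratio was -0.35. TTK, which encodes the checkpoint kinase MPS1, had 1010.3 with Glivec and 667 without, or 1.51-fold, by its only probe set. BUB1, a checkpoint kinase that marks the inner centromere, was at 0.43 by its brightest probe set and 0.15 by the other one above the floor on both arrays. PLK1 and AURKA were less different by the probe sets standing for them. PLK1, which acts from mitotic entry to cytokinesis, was at 0.24 (500.3 with Glivec, 423 without). AURKA, which matures the spindle poles, had 3 probe sets at 0.20 to 0.46. The one at 0.46 (978 with Glivec, 712 without) was nearly as bright as the one standing for the gene, at 0.23.

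Adaptor proteins of the spindle checkpoint had ratios near 0 by the probe sets standing for them. BUB1B, which encodes BUBR1, a part of the mitotic checkpoint complex, had 1275 with Glivec and 1219.8 without, a log2 ratio of 0.06. MAD2L1, which encodes the CDC20 inhibitor MAD2, had 2867 with Glivec and 2930.1 without by its brightest probe set (-0.03). Its other probe sets gave 1501 and 2088 (-0.48) and 113 and 141 (-0.33), so all 3 were lower with Glivec. Among the 18 members with more than 1 probe set above the floor on both arrays, it was the only one with all of them lower.

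BUB3, the adaptor that brings BUB1 and BUBR1 to kinetochores, had 2119.8 with Glivec and 2173 without (-0.04). Of the 4 other BUB3 probe sets above the floor on both arrays, 3 were at 0.07 to 0.14. The one at 0.14 was the brightest for BUB3 (3152 with Glivec, 2856 without), but its suffix marks possible cross-hybridisation. A dim one was at -0.72, with 25.8 and 42.6. The checkpoint adaptors as a set had a median of -0.03 over 3 genes, below the all-gene median.

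Genes that act at anaphase were unequal. ESPL1, which encodes separase, the protease that opens cohesin rings, had 535 with Glivec and 324 without, or 1.65-fold. A second ESPL1 probe set gave 524 and 298, a log2 ratio of 0.82, on the same side. PTTG1, which encodes securin, the inhibitor of separase, was at 0.08, with 1990.4 with Glivec and 1881 without. It rests on a probe set whose suffix marks possible cross-hybridisation. CDC20, the activator of the anaphase-promoting complex, and UBE2C, its ubiquitin-conjugating enzyme, were at 0.17 and 0.23. All 4 were above 0 as deposited and below it with spike-in scaling.

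Kinesin motor genes were above 0 in 8 of 8 as deposited and in 0 of 8 with spike-in scaling, with a median of 0.42 as deposited. KIF20A, a motor of the central spindle needed for cytokinesis, had 462 with Glivec and 277 without, or 1.67-fold. KIF18A, which dampens kinetochore microtubule ends and aligns chromosomes, had 266 and 178 (log2 ratio 0.58). KIF15 and KIF11, motors that hold the spindle poles apart, were at 0.50 and 0.45, and the chromosome-bound motor KIF4A was at 0.40.

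The remaining kinesins lay near the all-gene median by their brightest probe set. KIF2C, a microtubule depolymerase at centromeres, was at 0.14, and at 0.36 by a second probe set. KIF14, a motor of the midbody, was at 0.05 (521 with Glivec, 503 without), whereas its second probe set gave 423 and 283, at 0.58. KIF23, the motor subunit of centralspindlin, had 237 with Glivec and 217 without (0.13), and a dim probe set was at -0.23. RACGAP1, its partner in centralspindlin, was at 0.28.

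Centromere and kinetochore genes had a median of 0.22 over 6 genes, with 5 above 0 as deposited and 0 with spike-in scaling. NDC80, the microtubule-binding subunit that gives its complex its name, had 837 with Glivec and 521 without, or 1.61-fold. Of the other subunits of that complex, NUF2 was at 0.16 (658 and 587) and SPC25 at 0.05 (496 and 477). SPC24, which is counted below among the further mitotic genes, was at 0.65 (222 and 141). NDC80, NUF2 and SPC25 each rest on 1 probe set. CENPF, a large coiled-coil protein of the outer kinetochore, was at 0.43 by its brightest probe set and 0.16 by a dimmer one. CENPE, a kinesin of the kinetochore, was at 0.27. CENPA, the histone variant that marks centromeres, had 227 with Glivec and 230.2 without (-0.02), by a probe set whose suffix marks possible cross-hybridisation.

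Spindle microtubule proteins included the gene with the highest ratio of all 38. HMMR, a spindle pole protein that also binds hyaluronan, had 1111 with Glivec and 543 without, or 2.04-fold, and its second probe set had 586 and 314 (log2 ratio 0.90). Its ratio lay at percentile 97.2 of all measured genes, and NEK2 lay at 96.7. With spike-in scaling the log2 ratios of HMMR and NEK2 were 0.29 and 0.24. ASPM, which focuses the spindle poles, had 1002 with Glivec and 658 without (0.61). Both other ASPM probe sets were dim and at 0.05 and 0.07. DLGAP5, which stabilises kinetochore fibres, had 717 with Glivec and 474 without (0.60).

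NUSAP1, which bundles microtubules around chromosomes, had 2327 with Glivec and 1758 without (0.40), and 812 and 667 by its second probe set (0.28). TPX2, the activator of Aurora A on the spindle, was at 0.27, and the midzone bundling protein gene PRC1 was at 0.20. All 6 genes of this group were above 0 as deposited, and HMMR alone of them was with spike-in scaling.

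In the cytokinesis group of ANLN, ECT2 and RACGAP1 the 3 ratios lay between 0.27 and 0.45, with RACGAP1, already given above, at 0.28. ANLN, a scaffold of the contractile ring, was at 0.45 by its brightest probe set and 0.46 by the other. ECT2, which activates RhoA at the division plane, had 443 with Glivec and 367 without (0.27). A probe set with a cross-hybridisation suffix gave 126 and 129 for ECT2 (-0.04). TOP2A and BIRC5 formed a separate group, of chromosome passenger and topology genes. TOP2A, the topoisomerase that untangles sister chromatids, had 1824 with Glivec and 1297 without (0.49), and 0.25 by a second probe set. BIRC5, which encodes survivin of the chromosomal passenger complex, had the lowest ratio of the 38, -0.07, with 978 with Glivec and 1028 without. Other BIRC5 probe sets lay on both sides, at 0.52 (74.1 and 51.6), 0.17 and -0.21.

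**Figure D3:**
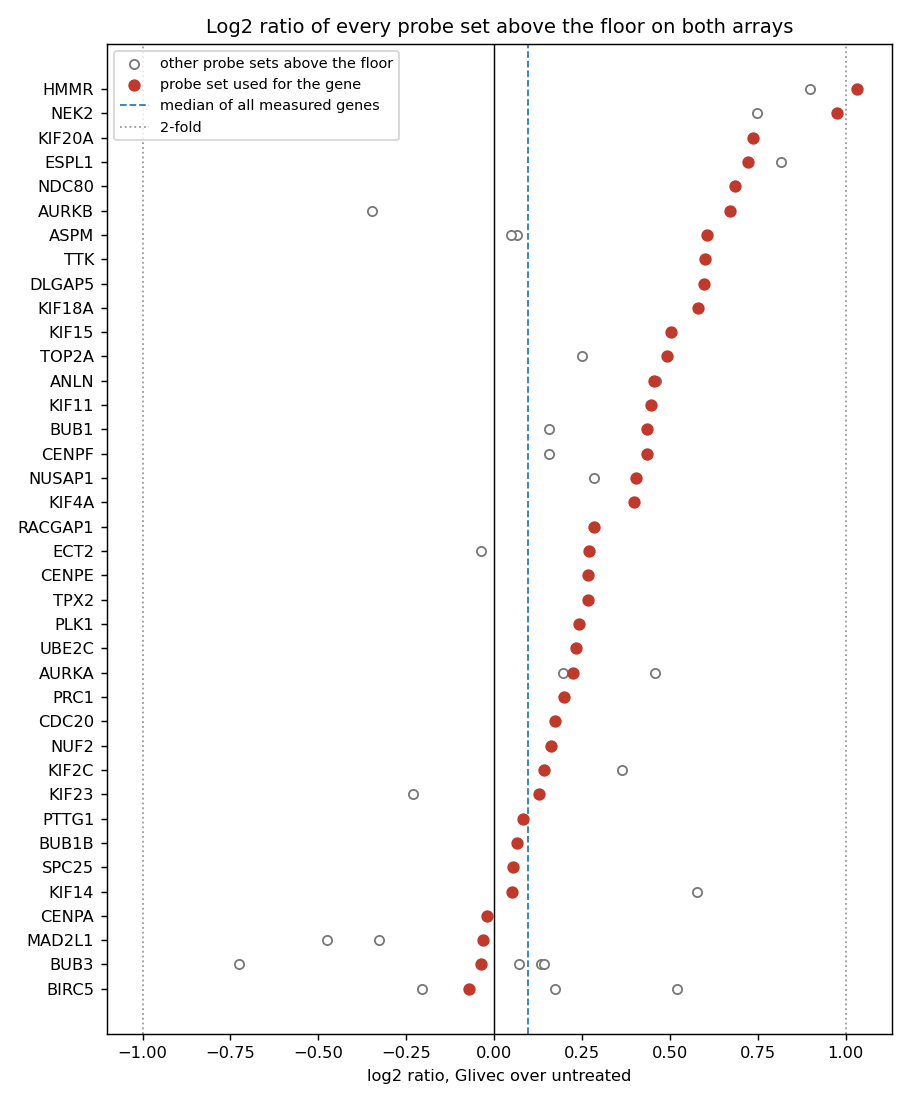
Log2 ratio (Glivec over untreated) of the probe set standing for each gene (filled) and of its other probe sets above the floor on both arrays (open), with genes ordered by ratio, a dashed line at the all-gene median of 0.10 and dotted lines at 2-fold. The open points of AURKB, ECT2, KIF23, BUB3 and BIRC5 lie on both sides of 0 together with the filled ones, and 32 of the 38 filled points change side under spike-in scaling.

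Probe sets of the same gene give the only measure of error here, and it leaves out all variation between cultures. The 38 genes had 71 probe sets, of which 64 were above the floor on both arrays. Of these 64, 53 were higher and 11 lower with Glivec as deposited, and their median log2 ratio was 0.24. Counted by gene, 57.8% of all measured genes above the floor on both arrays had a ratio above 0. The pooled SD between probe sets was 0.29 over the 18 members with several, and 0.33 over 5603 genes of the whole array. The ratios of 20 of the 38 genes lay within 0.29 of 0. In 12 of the 18 genes all such probe sets were higher, in 5 they had mixed signs, and in MAD2L1 all were lower. The same count was not made over all genes, so these numbers have no background beside them. The other 20 genes rest on 1 probe set.

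Other genes of the same pathways were counted for comparison, without a test. Of 71 further mitotic genes, 69 had a probe set and all of these were measured, with a median of 0.14. Of the 69, 51 (73.9%) were above 0, where 59.0% of all measured genes were. At 2-fold 1 was higher and 0 lower, where all measured genes gave 3.13% and 2.63%. CDC25C, the phosphatase that activates CDK1, had 284 with Glivec and 88.8 without, or 3.20-fold, and its other probe sets were at 0.29 and 0.64. SGO1, which shields centromeric cohesin, was at 0.72 by 1 probe set and -0.01 by another. The checkpoint ATPase gene TRIP13 (-0.74) and the kinetochore gene MIS12 (-0.68) were lower. CCNB1 and CDK1, the cyclin and kinase of mitotic entry, were at -0.09 (1309 with Glivec, 1396 without) and 0.13 (1660.2 and 1512) by their brightest probe sets. The second CCNB1 probe set was also at -0.09, whereas the 3 other CDK1 probe sets ranged from -0.11 to 0.80, so the sign for CDK1 depended on the probe set.

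Subunits and regulators of the anaphase-promoting complex had a median log2 ratio of -0.12 over 16 measured genes as deposited. With spike-in scaling the median was -0.86, on the same side of 0 as the -0.46 of the 38 mitotic genes. As deposited 13 of the 16 were below 0, where 5203 of 12705 measured genes were. At 1.5-fold 0 were higher and 2 lower, against the shares of 13.5% and 8.33% of all measured genes. The chain-extending enzyme gene UBE2S had 1503 with Glivec and 2335 without (-0.64), and the subunit gene CDC26 had 381 and 583 (-0.61). ANAPC10 was at -0.39. FZR1, which encodes the activator CDH1, was at 0.47, with other probe sets from -0.13 to 0.90.

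The DREAM, MuvB and NF-Y regulators had a median of 0.15 over 15 measured genes. Of these, 10 (66.7%) were above 0, near the 59.0% of all measured genes. The median of this list was -0.11 with plain probe sets alone and -0.62 with spike-in scaling. MYBL2, which encodes B-MYB, was at 0.23 (596 with Glivec, 506 without), and FOXM1 was at 0.32 (261 and 209). TFDP2, a dimerisation partner of E2F factors, was at 0.94, with other probe sets from 0.30 to 0.84, whereas the brighter TFDP1 was at -0.39. The MuvB subunit genes were unequal, with LIN37 at 0.87, LIN52 at 0.19, RBBP4 at 0.15 and LIN54 at -0.56. The NF-Y subunit gene NFYC was at 0.65, with its other probe sets from 0.33 to 0.51, but NFYA was at -0.11 and NFYB at -0.42. E2F5, from dim signals, was at -0.65. Replication genes of the preceding phase had a median of 0.11 over 44, close to the all-gene median. Of the 44, 27 (61.4%) were above 0, close to the same 59.0%. In that list CDT1, a licensing factor, was 2.10-fold higher by its brighter probe set and at a log2 ratio of 0.45, short of 2-fold, by the other. PRIM1 was at 0.68 by its only probe set. FEN1 was at -0.77, or -0.65 by another probe set, and MCM10 at -0.76, with others from -0.78 to -0.32.

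**Figure D4:**
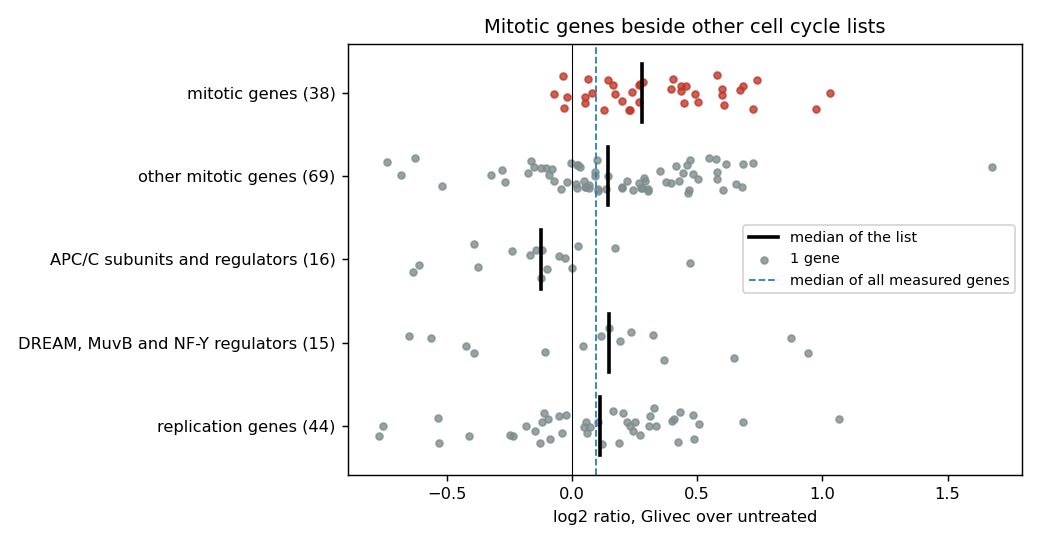
Log2 ratio (Glivec over untreated) of each measured gene, 1 point each, in the 38 mitotic genes (red) and 4 other cell cycle lists (grey), with a black bar at each list's median and a dashed line at the all-gene median. The medians are 0.28, 0.14, -0.12, 0.15 and 0.11 from top to bottom, and all are below 0 under spike-in scaling.

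The median of the mitotic genes exceeded the all-gene median in each of 11 settings, which are not separate checks. Median centring subtracts 1 constant from all ratios, and spike-in scaling divides 1 array by 1 constant. The other floors and the pseudocount left the median of the mitotic genes at 0.28. The excess was 0.18 as deposited, 0.27 with quantile normalization, 0.28 after loess and 0.13, the smallest, with spike-in scaling.

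**Figure D5:**
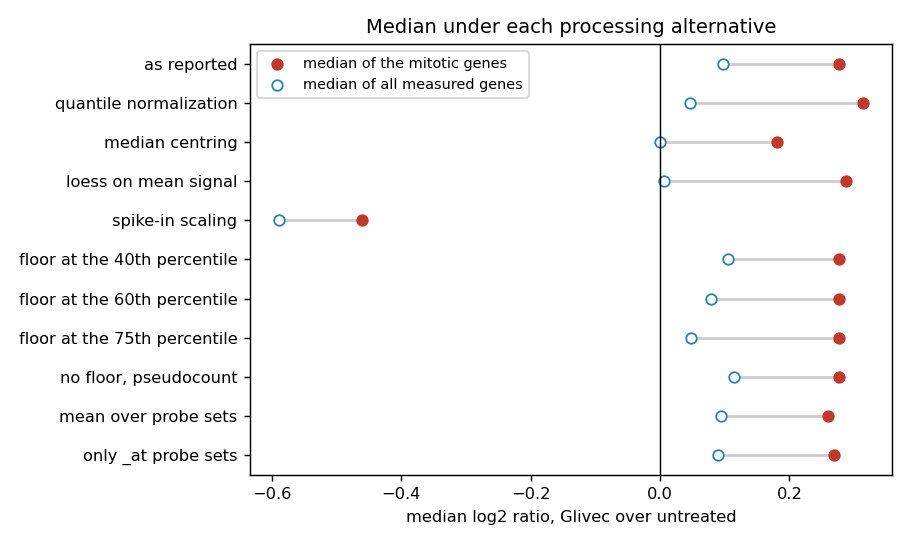
Median log2 ratio (Glivec over untreated) of the 38 mitotic genes (filled; 29 of them with plain probe sets alone) and of all measured genes (open) as reported and under 10 alternatives. The filled point lies to the right of the open one in each setting, and both lie below 0 with spike-in scaling, at -0.46 and -0.59.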

How the data were processed

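RNA from 1 Glivec-treated and 1 untreated EOL1 culture was measured on Affymetrix arrays. Per the submitters' processing notes the authors used MAS5 (version not given in the sources) to make the deposited intensities, 1 per probe set. Trimming 2% of signals at each end gave a mean of 100.014 for both arrays, so they had been scaled to a common level. No detection calls were used here.

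Of 54675 probe sets, 62 were controls, 41097 had 1 gene symbol in the platform annotation, which can be old, 1801 had several and 11777 were unnamed. Entrez identifiers matched 41043 of them to RefSeq (GRCh38.p14), which changed 0 symbols. A probe set shared by CENPA and another gene was not used. Signals under the floor were set to it, and log2 followed. The probe set of highest mean signal stood for a gene, and _x_at probe sets only where no other was present.

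Genes named in full were those at least 1.5-fold different, those with probe sets of mixed sign, the 4 brightest and any known as bounds. Up to 4 genes per comparison list were added, those with the largest ratios in size above the floor on both arrays, and MYBL2, FOXM1, CCNB1 and CDK1. SPC24, TFDP1, LIN52, LIN54, RBBP4, NFYA and NFYB were named beside partners already given. The members, lists and rules were chosen with earlier results of these data known. Of 23 cell type markers, 19 had a probe set of 1 gene, and the others are not analysed here. The calculation was tested on simulated signals. Alternatives were quantile normalization, median centring, loess (span 0.3), spike-in scaling, floors at percentiles 40, 60 and 75, a pseudocount of 0.646 without a floor, the mean over probe sets, plain _at probe sets alone, and thresholds of 1.5-fold and 3-fold. Python 3.11.15, numpy 2.4.6, pandas 2.3.3, statsmodels 0.14.6 and matplotlib 3.10.9 were used.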

Additional observations from a re-analysis of the deposited data

How the results depend on the processing

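No paired analysis was possible because there are no replicates, and for that reason none could be left out. Changes of a median by over 0.1 (log2) and of a count by over 1.5 times are given here. Floors, the pseudocount and loess left the counts and the median of the 38 genes in place, and quantile normalization did too. The count of mitotic genes at least 2-fold higher was 0 with median centring, with spike-in scaling, with the mean over probe sets and at 3-fold, and 9 at 1.5-fold. With spike-in scaling 2 genes were above 0, and the median was -0.46 for the mitotic genes, -0.60 for the other mitotic genes, -0.86 for the anaphase-promoting complex list, -0.62 for the DREAM, MuvB and NF-Y list and -0.63 for replication genes. With plain _at probe sets the DREAM, MuvB and NF-Y median was -0.11 over 11 genes. Median centring turned the sign of 4 members, the mean over probe sets of 2 and plain _at probe sets of 3.

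Over all measured genes, 398 were at least 2-fold higher and 334 lower. The pairs were 290 and 398 with quantile normalization, 272 and 448 for median centring, 207 and 476 for loess, 43 and 2484 for scaling to the spike-ins. They were 735 and 459, 234 and 276, and 91 and 176 with the floor at the 40th, 60th and 75th percentile, and 2408 and 1848 with the pseudocount. At 1.5-fold they were 1710 and 1058, and at 3-fold 56 and 86. The shift with spike-in scaling follows from its construction; the cause of the other changes was not tested. Signal over background is not known without detection calls, and it limits dim probe sets most.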
